A study of Homo sapiens with 18 samples.

Results

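Retinoic acid acts through 2 families of nuclear receptors, and the 8 genes described here are 5 of those receptors and 3 genes known to respond to the hormone. RARA, RARB and RARG encode the retinoic acid receptors, RXRA and RXRB encode the retinoid X receptors that pair with them, and DHRS3, CYP26A1 and CRABP2 encode a retinaldehyde reductase, a retinoic acid hydroxylase and a retinoic acid-binding protein. They were taken by name, as the genes to which the array's annotation gave a probe set, and make up 8 of 19775 genes with a named probe set. Together they have 21 of the 54675 probe sets of the array, of which 12 reached the low-value filter described below, and these 12 covered 7 of the 8 genes.

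The samples were 2 human prostate cancer cell lines: the androgen-responsive LNCaP and its subline LNCaP-abl, which proliferates in the absence of androgen. Transfection with control siRNA or siRNA to TRIM24 lasted 48 h. LNCaP was kept for 48 h in serum stripped with charcoal and dextran, then exposed for 24 h to ethanol as vehicle or to dihydrotestosterone (DHT, a potent androgen) at 10 nM. The growth protocol names LNCaP only, and whether LNCaP-abl was kept in stripped serum in the same way is not stated. The 6 groups were LNCaP with control siRNA and vehicle, LNCaP with TRIM24 siRNA and vehicle, LNCaP with control siRNA and DHT, LNCaP with TRIM24 siRNA and DHT, LNCaP-abl with control siRNA and vehicle, and LNCaP-abl with TRIM24 siRNA and vehicle, with 3 arrays each and 18 in all. All groups were transfected, none was labelled as given a retinoid, and LNCaP-abl was not given DHT. The labels number the arrays of a group but do not say that they came from separate cultures, so p-values here rest on a spread between arrays that may be technical.

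In textbook form, an RAR and an RXR bind as a pair to a repeated half-site near their target genes. Without ligand the pair holds a corepressor complex built on NCOR and HDAC3, and with ligand it exchanges this for coactivators such as the NCOA proteins. TRIM24, also known as TIF1-alpha, is a bromodomain protein first described as a cofactor of nuclear receptors, retinoic acid receptors among them. RARB and CYP26A1 carry well-known response elements for this pair, and CYP26A1, DHRS3 and CRABP2 act back on the supply of ligand: CYP26A1 clears retinoic acid, DHRS3 turns retinaldehyde back to retinol, and CRABP2 carries retinoic acid to the nucleus.

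The RARB and CYP26A1 upstream sequences are shown because each holds that response element, and the DHRS3 sequence because DHRS3 was the gene of the 8 that fell with each knockdown. Each is the 250 bases before a RefSeq transcript start in GRCh38.p14, written 5′ to 3′ on the strand of the gene, at chr3:25428013-25428262 (plus strand) for RARB, chr10:93073643-93073892 (plus strand) for CYP26A1 and chr1:12618211-12618460 (minus strand) for DHRS3. Capitals mark a match to the DR5 motif, searched on both strands as GTTCA or GGTCA, then NNNNNN, then GTTCA or GGTCA.
RARB: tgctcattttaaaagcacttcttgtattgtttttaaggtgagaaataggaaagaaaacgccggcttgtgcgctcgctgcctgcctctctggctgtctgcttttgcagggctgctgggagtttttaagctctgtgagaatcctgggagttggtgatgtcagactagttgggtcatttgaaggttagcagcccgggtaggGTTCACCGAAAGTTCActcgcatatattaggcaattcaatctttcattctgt
CYP26A1: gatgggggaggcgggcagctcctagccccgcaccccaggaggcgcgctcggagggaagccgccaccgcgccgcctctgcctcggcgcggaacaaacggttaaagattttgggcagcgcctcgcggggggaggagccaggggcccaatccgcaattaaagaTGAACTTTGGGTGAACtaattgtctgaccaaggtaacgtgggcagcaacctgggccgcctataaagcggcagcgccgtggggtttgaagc
DHRS3: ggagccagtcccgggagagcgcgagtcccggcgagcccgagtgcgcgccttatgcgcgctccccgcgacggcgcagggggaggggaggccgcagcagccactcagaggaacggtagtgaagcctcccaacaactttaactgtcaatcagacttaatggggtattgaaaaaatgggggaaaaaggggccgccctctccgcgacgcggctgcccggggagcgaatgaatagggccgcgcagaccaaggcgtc

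The RARB match, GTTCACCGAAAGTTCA, lay 52 to 37 bases before the start and on the strand of the gene. The CYP26A1 match lay 90 to 75 bases before the start and read on the opposite strand. The DHRS3 sequence has no capitals because these letters do not occur in it. All 8 genes matched the promoter table, with 18 start-site windows of 300 bases, and the motif occurred in 2 of the 18. Over all genes it occurred in 61 of 35116 windows (0.174%). The related DR2 motif (NNN in place of NNNNNN) occurred in 0.159% and DR1 (NN) in 0.245% of all windows, and neither in a window of the 8 genes. A match is a string of letters and was not measured as a binding site here.

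The deposited values are log2 expression values on a common scale, with array medians between 5.83 and 5.93. A gene was represented by its probe set with the highest mean, and it was tested when at least 3 of the 18 arrays reached 5.88, the median of the table. Differences are given as log2 values ± the standard error of the limma fit, with p-values adjusted by the Benjamini-Hochberg method over the 13607 genes tested, and those with an adjusted p under 0.05 are named called. By its brightest probe set, TRIM24 was lower in all 9 knockdown arrays than in any control array. Its level was 25.1% of control in vehicle-treated LNCaP, 22.7% in DHT-treated LNCaP and 23.6% in LNCaP-abl. With vehicle in LNCaP, 204391_x_at and the dim 1569316_at also fell, from 9.09 to 7.10 and from 4.53 to 3.74. Another probe set under the filter, 204390_at, did not (5.48 and 5.51). DHT raised the brightest probe set by 0.44 ± 0.05 in control cells and 0.30 ± 0.05 in knockdown cells (adjusted p = 4.98e-06 and 0.000281). Arrays of a group correlated at 0.9963 to 0.9983. All 7 luminal prostate markers with a named probe set reached the filter, none of 3 basal markers did, and none of these genes was at 0 (the scale has no 0). The summed signal of the luminal list was 13.38 to 13.43 on the log2 scale in control LNCaP with vehicle, 15.21 to 15.24 with DHT, and 12.86 to 12.92 in control LNCaP-abl; after knockdown these were 13.13 to 13.16, 15.16 to 15.17 and 12.75 to 12.79. The summed signal of 6 mesenchymal markers was 11.07 to 11.17 in control LNCaP with vehicle and 8.81 to 8.87 in control LNCaP-abl (10.92 to 11.01 and 8.61 to 8.81 after knockdown). The luminal sum moved with DHT and with cell line, and the mesenchymal sum with cell line and, by less, with DHT (10.62 to 10.69 in control cells, 10.51 to 10.53 after knockdown). Both were also lower after knockdown in each setting, though the mesenchymal ranges met in LNCaP-abl. The 7 luminal markers taken singly differed between settings. In vehicle-treated LNCaP the knockdown called 5 lower and 0 higher (median -0.32), against 18% and 20.5% of all genes. Under DHT it called 2 lower and 1 higher (median -0.04), against 20.8% and 19.4%. In LNCaP-abl it called 4 lower and 2 higher (median -0.16, highest 0.44), against 28.8% and 16.7%. DHT called 5 luminal markers higher and 2 lower with either siRNA, with differences from -0.90 to 5.62 in control cells. Over all genes DHT called 19.4% higher and 26.4% lower with control siRNA, and 16.9% and 26.6% with TRIM24 siRNA. In control LNCaP-abl 1 luminal marker was called higher and 6 lower than in LNCaP, against 29.1% and 34.6%. The part of either marker list in the results was not tested. VIM, an intermediate filament gene among the 6 mesenchymal markers, read 10.80 to 10.92 in control LNCaP with vehicle and 6.04 to 6.55 in control LNCaP-abl. The mesenchymal markers did not all move this way. Of the 4 tested, 1 was called higher and 2 lower in control LNCaP-abl, against 29.1% and 34.6% of all genes. Their differences ran from -4.48 to 1.40, with a median of -0.15. Knockdown called 0 of these 4 in LNCaP with vehicle (median -0.07) and 0 with DHT (median 0.01). In LNCaP-abl it called 2 lower and 0 higher (median -0.15, highest 0.12). Over all genes 38.5%, 40.2% and 45.6% were called in these 3 settings. Of 4 neuroendocrine markers 1 reached the filter and of 6 leukocyte and endothelial markers 3 did, while PTPRC, the pan-leukocyte marker, stayed at 3.13 to 3.54 on all arrays. As the RNA came from whole cultures, fewer cells that express a gene and less RNA per cell cannot be told apart.

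**Figure D1:**
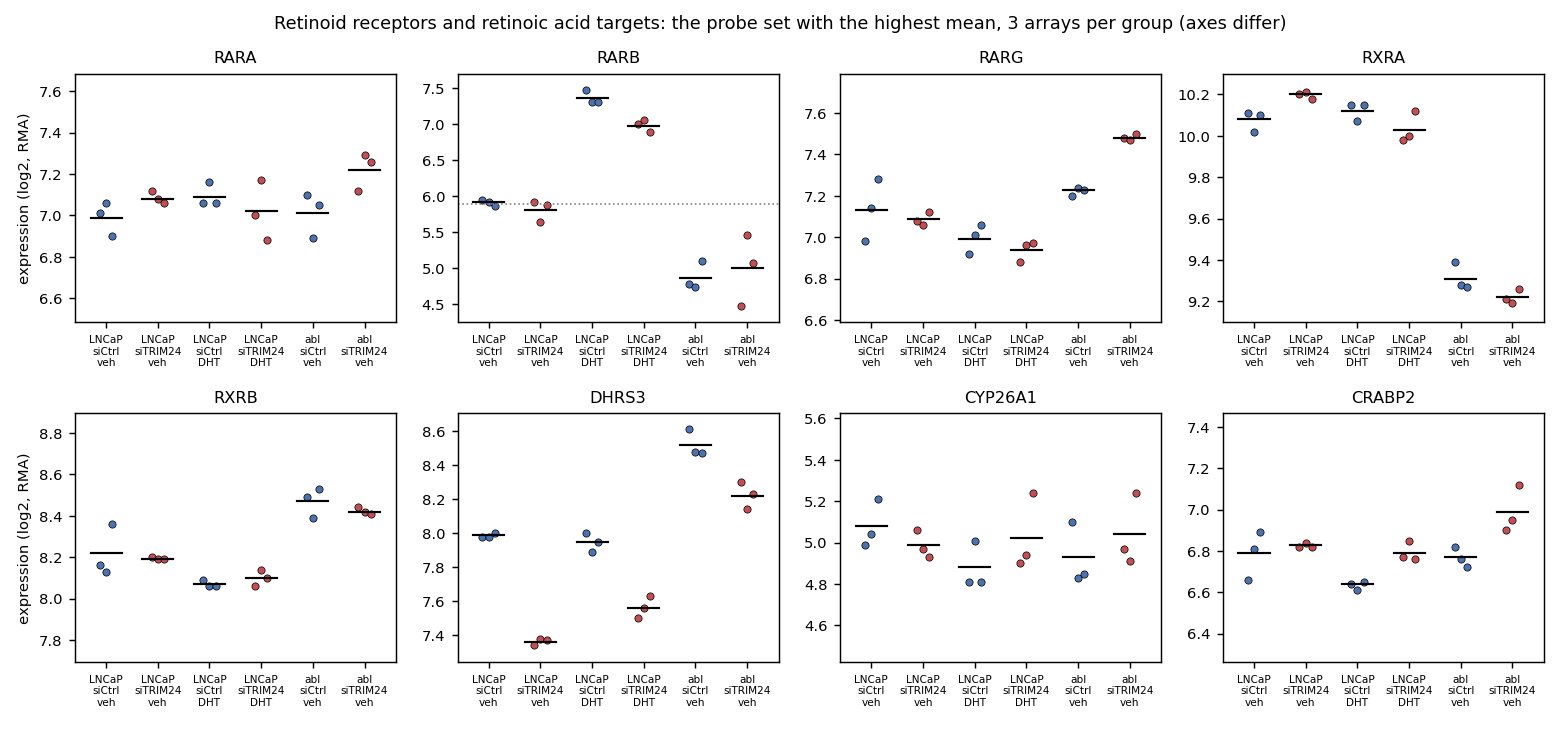
Each panel shows 1 gene in the 6 groups, with expression as log2 values on the vertical axis (ranges differ between panels). Points are arrays, 3 a group, blue for control siRNA and red for TRIM24 siRNA; the black line is the group mean and the dotted line, where in range, the filter at 5.88. DHRS3 was lower in red than in blue in each of the 3 pairs of groups, RARB was highest in both DHT groups, and RXRA was lowest in both LNCaP-abl groups.

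RARB, the receptor that is itself a retinoic acid target, was the receptor with the largest difference between DHT and vehicle. Its brightest probe set read 5.94, 5.91 and 5.86 in control LNCaP with vehicle and 7.47, 7.30 and 7.30 with DHT. With TRIM24 siRNA it read 5.91, 5.63 and 5.87 with vehicle and 7.00, 7.05 and 6.88 with DHT. Every DHT array was above every vehicle array with either siRNA. RARB rose 2.73-fold with DHT in control cells (log2 difference 1.45 ± 0.17, adjusted p = 3.11e-06) and 2.25-fold in knockdown cells (1.17 ± 0.17, adjusted p = 3.14e-05). Since the vehicle levels lay at or under the filter, where array signals are compressed, these folds may understate the change.

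TRIM24 siRNA left RARB without a call in any setting. Under DHT the knockdown arrays were all below the control arrays, by 0.38 ± 0.17 (95% interval of the difference -0.75 to -0.02, adjusted p = 0.0905). Of 16 alternatives, 1 called this difference, the fit of only the 6 arrays compared (adjusted p = 0.00329). Leaving out 1 array at a time gave adjusted p from 0.116 to 0.226. With vehicle the difference was -0.11 (interval -0.47 to 0.26, adjusted p = 0.682). The DHT responses with and without TRIM24 siRNA differed by -0.28 ± 0.24, which was not called (adjusted p = 0.519, interval -0.79 to 0.24). In LNCaP-abl RARB read 4.77, 4.73 and 5.09 with control siRNA and 4.47, 5.46 and 5.06 with TRIM24 siRNA, all under the filter. The knockdown difference there was 0.13 (adjusted p = 0.561). Leaving out 1 array at a time gave differences from -0.10 to 0.40, so the sign was not settled. Only the omission of the first knockdown array, the lowest of the 6, gave a call (0.40, adjusted p = 0.0173).

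LNCaP-abl had less RARB signal than LNCaP. The difference between vehicle groups was -1.04 ± 0.17 with control siRNA (adjusted p = 5.25e-05) and -0.81 ± 0.17 with TRIM24 siRNA (adjusted p = 0.000563), with no overlap of arrays in either. The 5 probe sets for RARB did not all respond. Besides the brightest, 208530_s_at was called with DHT in control cells at 0.39 ± 0.12 (adjusted p = 0.0248 over all probe sets) and in LNCaP-abl at -0.35 ± 0.12 (adjusted p = 0.026). This probe set did not reach the filter either. With TRIM24 siRNA its mean was 5.50 with vehicle and 5.82 with DHT, which was not called. The remaining 3 probe sets read between 3.30 and 5.54 on every array, under the filter, and limma called them in none of the 9 comparisons; of these, 217020_at had an unadjusted p under 0.05 in 5 comparisons and the others in 0.

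**Figure D2:**
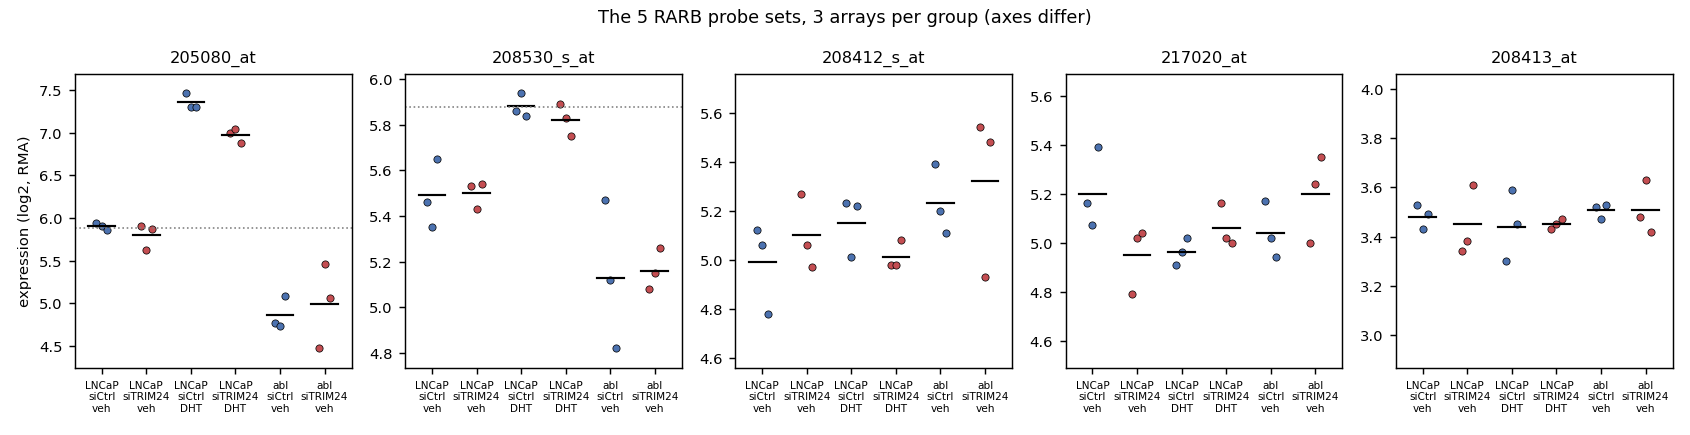
The 5 probe sets for RARB in the 6 groups, as log2 values, with 1 point an array (blue control siRNA, red TRIM24 siRNA), black lines for group means and a dotted line at the filter of 5.88. The brightest, 205080_at, rose by 1.45 with DHT in control cells and 208530_s_at by 0.39; the other 3 stayed between 3.30 and 5.54.

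RXRA, a retinoid X receptor, was lower in LNCaP-abl. It read 10.11, 10.02 and 10.10 in control LNCaP with vehicle and 9.39, 9.28 and 9.27 in control LNCaP-abl. With TRIM24 siRNA it read 10.20, 10.21 and 10.18 in LNCaP and 9.21, 9.19 and 9.26 in LNCaP-abl. The arrays of the cell lines did not overlap with either siRNA. RXRA was thus at 58.8% of the LNCaP level with control siRNA (-0.77 ± 0.04, adjusted p = 2.43e-10) and at 50.8% with TRIM24 siRNA (-0.98 ± 0.04, adjusted p = 1.08e-11). Its second probe set, 202426_s_at, gave -0.64 ± 0.06 and -0.84 ± 0.06 (adjusted p = 1.71e-07 and 5.55e-09 over all probe sets).

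Changes of RXRA with TRIM24 siRNA were small, and its probe sets differed on them. In LNCaP with vehicle it rose by 0.12 ± 0.04 (adjusted p = 0.0429), a call that was lost when any 1 of the 6 arrays was left out (adjusted p from 0.0501 to 0.163); 202426_s_at gave -0.01 there (adjusted p = 0.92 over all probe sets). In LNCaP-abl the knockdown arrays given above lay below the control arrays without overlap, but the difference was not called (-0.09 ± 0.04, interval -0.19 to 0.00, adjusted p = 0.113). Of 17 alternatives, 3 called it: the mean of probe sets (-0.15, adjusted p = 0.00548), centred arrays (-0.13, adjusted p = 0.0341) and an RNA quality covariate described below (-0.15, adjusted p = 0.0302). The others did not, and with quantile normalization the difference was -0.01 (adjusted p = 0.929). By itself, 202426_s_at was lower after knockdown in LNCaP-abl, from 6.62, 6.56 and 6.70 to 6.45, 6.44 and 6.37 (-0.21 ± 0.06, adjusted p = 0.0193 over all probe sets). With DHT the brightest probe set of RXRA read 10.15, 10.07 and 10.15 in control cells and 9.98, 10.00 and 10.12 in knockdown cells, which overlapped (-0.09, adjusted p = 0.129). Without the third knockdown array the difference was -0.13 (adjusted p = 0.0314). DHT lowered RXRA in knockdown cells by -0.16 ± 0.04 (adjusted p = 0.00706) and left it uncalled in control cells (0.05, adjusted p = 0.414). The knockdown difference was 0.21 lower with DHT than with vehicle (-0.21 ± 0.06, adjusted p = 0.0432), a call lost without 10 of the 12 arrays in turn (adjusted p up to 0.101). It was also lower in LNCaP-abl than in LNCaP (-0.21 ± 0.06, adjusted p = 0.0208; -0.18 and adjusted p = 0.0516 without the second control LNCaP array). The same interactions were 0.04 and -0.20 by 202426_s_at, neither called (adjusted p = 0.896 and 0.183 over all probe sets).

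RXRB, the other retinoid X receptor, moved the opposite way between the cell lines. It read 8.16, 8.13 and 8.36 in control LNCaP with vehicle and 8.49, 8.39 and 8.53 in control LNCaP-abl. The difference was 0.25 ± 0.05 with control siRNA (adjusted p = 0.000425) and 0.23 ± 0.05 with TRIM24 siRNA (adjusted p = 0.000952), and arrays did not overlap in either. A dim second probe set, 215099_s_at, was also higher in control LNCaP-abl (0.30 ± 0.09, adjusted p = 0.0161 over all probe sets). TRIM24 siRNA gave RXRB differences of -0.02, 0.03 and -0.05 in the 3 settings, none called, with intervals that stayed between -0.16 and 0.14. DHT lowered RXRB in control cells by -0.15 ± 0.05 (adjusted p = 0.0275), but the third control vehicle array, at 8.36, set much of this: without it the difference was -0.07 (adjusted p = 0.156). The call was also lost without the second or the third control DHT array (adjusted p = 0.0632 and 0.0716).

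RARG, the receptor best known from skin, was the receptor with a knockdown response that no alternative removed. In LNCaP-abl it read 7.20, 7.24 and 7.23 with control siRNA and 7.48, 7.47 and 7.50 with TRIM24 siRNA. The groups were well apart, and RARG rose by 0.26 ± 0.06 (1.2-fold, adjusted p = 0.0018). In LNCaP the knockdown differences were -0.04 with vehicle and -0.06 with DHT (adjusted p = 0.596 and 0.478), with overlapping arrays. The knockdown difference was larger in LNCaP-abl than in LNCaP by 0.30 ± 0.08 (adjusted p = 0.0123), although this was not called from the mean of its 3 probe sets (0.18, adjusted p = 0.133). Its second probe set, 204188_s_at, was not called for the knockdown in LNCaP-abl.

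Between cell lines, RARG was higher in LNCaP-abl with TRIM24 siRNA (0.40 ± 0.06, adjusted p = 1.42e-05) and was not called with control siRNA (0.09, adjusted p = 0.169; 0.17, adjusted p = 0.00876 without the third control LNCaP array). DHT gave RARG -0.14 in control cells (adjusted p = 0.0664) and -0.15 ± 0.06 in knockdown cells (adjusted p = 0.0478). The second of these calls was lost when any 1 of the 6 arrays was left out. In control cells the value was -0.21 (adjusted p = 0.00277) without the first vehicle array and -0.17 (adjusted p = 0.0484) without the third DHT array. The data thus place the DHT difference of RARG near the threshold with both siRNAs.

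RARA, the most widely expressed retinoic acid receptor, had the narrowest range of the 7 tested genes by its brightest probe set, with group means from 6.99 to 7.22. It rose with TRIM24 siRNA in LNCaP-abl, from 7.10, 6.89 and 7.05 to 7.12, 7.29 and 7.26 (0.21 ± 0.07, adjusted p = 0.0272). That call was lost without the second control array or without the second or the third knockdown array (adjusted p up to 0.135). No other comparison of this probe set was called. A second probe set for RARA, 203749_s_at, disagreed with it. That probe set fell with DHT by -0.32 ± 0.10 in control cells and by -0.34 ± 0.10 in knockdown cells (adjusted p = 0.0277 and 0.0202 over all probe sets). It was also lower in LNCaP-abl, by -0.43 ± 0.10 with control siRNA and -0.56 ± 0.10 with TRIM24 siRNA (adjusted p = 0.00249 and 0.000214). A direction for RARA with DHT or cell line therefore depends on the probe set.

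DHRS3, which returns retinaldehyde to retinol, fell with TRIM24 siRNA in all 3 settings. Its single probe set read 7.98, 7.98 and 8.0 in control LNCaP with vehicle and 7.34, 7.38 and 7.37 after knockdown. With DHT it read 8.0, 7.89 and 7.95 in control cells and 7.50, 7.56 and 7.63 after knockdown. In LNCaP-abl it read 8.61, 8.48 and 8.47 with control siRNA and 8.30, 8.14 and 8.23 after knockdown. Every knockdown array was below every control array of its setting. DHRS3 was left at 65% of control in vehicle-treated LNCaP (-0.62 ± 0.05, adjusted p = 4.52e-08), 76.7% with DHT (-0.38 ± 0.05, adjusted p = 9.63e-06) and 81.3% in LNCaP-abl (-0.30 ± 0.05, adjusted p = 0.000109). None of the 17 alternatives removed any of these 3 calls. Of the 13607 genes tested, 11.3% were called lower in all 3 knockdown comparisons and 6.75% higher in all 3.

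The size of the DHRS3 fall differed between settings. The knockdown difference was smaller in LNCaP-abl than in LNCaP with vehicle by 0.32 ± 0.07 (adjusted p = 0.00273), and this was called in all 23 alternatives run. It was smaller with DHT than with vehicle by 0.24 ± 0.07 (adjusted p = 0.0369), a call lost without 10 of the 12 arrays in turn, with differences from 0.20 to 0.27. DHT itself left DHRS3 uncalled in control cells (-0.04, interval -0.14 to 0.07, adjusted p = 0.563) and raised it in knockdown cells by 0.20 ± 0.05 (adjusted p = 0.00305). LNCaP-abl had more DHRS3 than LNCaP, 1.45-fold with control siRNA (0.54 ± 0.05, adjusted p = 6.07e-08) and 1.81-fold with TRIM24 siRNA (0.86 ± 0.05, adjusted p = 1.58e-10). The order of the groups ran from control LNCaP-abl down to knockdown LNCaP with vehicle, and only the control LNCaP groups, which differ in DHT, overlapped as neighbours.

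CYP26A1, the main enzyme that clears retinoic acid and a sensitive sign of its presence, stayed under the filter on every array. Its single probe set read between 4.81 and 5.24 over the 18 arrays, with group means from 4.88 to 5.08. Neighbouring groups in this order all overlapped, and the gene was not tested. In the limma fit of all probe sets it was called in none of the 9 comparisons, with an unadjusted p under 0.05 in 0. An array value this low does not show whether the transcript was absent. CYP26B1, a related clearance enzyme, passed the filter and was called in 1 comparison, DHT in control cells (-0.22, adjusted p = 0.028, lost without 3 of the 6 arrays in turn).

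CRABP2, which carries retinoic acid to its receptors, rose with TRIM24 siRNA in LNCaP-abl. Its single probe set read 6.82, 6.76 and 6.72 with control siRNA and 6.90, 6.95 and 7.12 after knockdown, with no overlap (0.22 ± 0.06, adjusted p = 0.00644). In LNCaP with DHT it read 6.64, 6.61 and 6.65 in control cells and 6.77, 6.85 and 6.76 after knockdown (0.16 ± 0.06, adjusted p = 0.0468). The second call was lost when any 1 of the 6 arrays was left out, and with vehicle the difference was 0.04 (adjusted p = 0.651). DHT lowered CRABP2 in control cells by -0.15 ± 0.06 (adjusted p = 0.0466; lost without any array but the first vehicle array). LNCaP-abl exceeded LNCaP with TRIM24 siRNA by 0.16 ± 0.06 (adjusted p = 0.0242), which was lost without the first or the third LNCaP array or the third LNCaP-abl array (adjusted p from 0.0551 to 0.153).

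A measure of RNA quality moved with the knockdown. The 3′ signal over the 5′ signal of the GAPDH control was 0.52 (log2) in control LNCaP with vehicle and 0.59 after knockdown, 0.56 and 0.63 under DHT, and 0.56 and 0.64 in the LNCaP-abl groups. For ACTB the same pairs were 1.87 and 2.05, 1.85 and 2.19, and 1.87 and 1.99. With the mean of both controls as a covariate, an alternative chosen after seeing the data, DHRS3 fell by -0.68, -0.47 and -0.34 in the 3 settings, and each was called. RARG in LNCaP-abl was 0.20 (adjusted p = 0.0422). CRABP2 was not called, at 0.11 in LNCaP-abl (adjusted p = 0.183) and -0.08 in LNCaP with DHT (adjusted p = 0.635), and neither was RXRA in LNCaP with vehicle (0.04, adjusted p = 0.673) or RARA in LNCaP-abl (0.18, adjusted p = 0.148). The GAPDH measure of control and knockdown arrays did not overlap in any setting. A fit with this covariate therefore cannot tell RNA quality and knockdown apart, and why a call was lost was not tested.

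**Figure D3:**
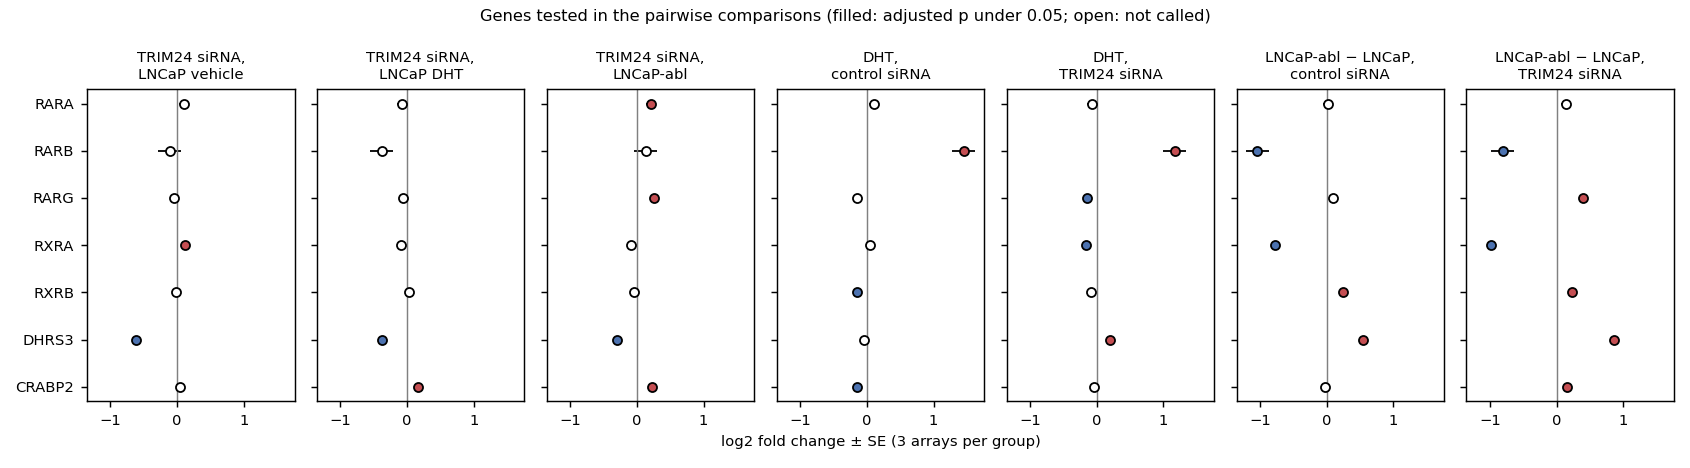
Log2 differences of the 7 tested genes in each of the 7 comparisons of groups, with the standard error of the fit as bars (often shorter than the point); filled points were called at an adjusted p under 0.05, red for higher and blue for lower. DHRS3 lies below 0 in each knockdown comparison, from -0.62 to -0.30, and RARB shows the differences of largest size, 1.45 and 1.17 with DHT and -1.04 in control LNCaP-abl.

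Calls were counted over the 7 tested genes and set beside those over all genes. The knockdown called 2 of 7 in LNCaP with vehicle (1 higher, 1 lower), where it called 38.5% of all genes tested (20.5% higher, 18% lower). With DHT it called 2 of 7 (1 higher, 1 lower), against 40.2% of all genes (19.4% higher, 20.8% lower), and in LNCaP-abl 4 of 7 (3 higher, 1 lower), against 45.6% (16.7% higher, 28.8% lower). DHT called 3 of 7 with control siRNA (1 higher, 2 lower), against 45.7% (19.4% higher, 26.4% lower), and 4 of 7 with TRIM24 siRNA (2 higher, 2 lower), against 43.5% (16.9% higher, 26.6% lower). LNCaP-abl differed from LNCaP in 4 of 7 with control siRNA (2 higher, 2 lower), against 63.8% (29.1% higher, 34.6% lower), and in 6 of 7 with TRIM24 siRNA (4 higher, 2 lower), against 69.8% (29.6% higher, 40.2% lower). The knockdown differed between DHT and vehicle for 2 of 7 (1 higher, 1 lower), against 11.1% (5.38% higher, 5.70% lower), and between cell lines for 3 of 7 (2 higher, 1 lower), against 28.5% (8.58% higher, 19.9% lower). These comparisons share arrays: each control or knockdown group serves in more than 1 of them. Arrays of the groups did not overlap for 3, 3 and 5 of 7 genes in the knockdown comparisons, against 50.9%, 49.7% and 52.0% of all genes, and for 4 and 5 of 7 with DHT, against 52.5% and 56.4%. For cell line these counts were 4 and 6 of 7, against 66.6% and 74.1%. Tested 1 by 1, 1, 1 and 4 of the 21 probe sets of the 8 genes were called in the knockdown comparisons, against 16.7%, 17.1% and 21.8% of all probe sets, and 3 and 4 with DHT, against 21.1% and 19.7%. Between cell lines 9 and 8 were called, against 36.5% and 43.0%. For the interactions limma called 0 with DHT (3 at an unadjusted p under 0.05) and 2 with cell line, against 1.80% and 8.61%. The median difference of the 7 genes was -0.02, -0.08 and 0.13 in the knockdown comparisons, where that of all genes was 0.00, 0.01 and -0.01.

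The other genes of the pathway were taken from lists by role, chosen with earlier results of these data known. Of 22 listed genes of retinoic acid synthesis and retinol storage, 20 had a named probe set in the tables used here and 14 were tested. Of the 14, knockdown raised 4 and lowered 4 in vehicle-treated LNCaP, raised 3 and lowered 3 under DHT, and raised 3 and lowered 2 in LNCaP-abl, DHRS3 among the lowered each time. Over all genes the shares raised and lowered were 20.5% and 18% in vehicle-treated LNCaP, 19.4% and 20.8% under DHT, and 16.7% and 28.8% in LNCaP-abl. RDH10, which oxidizes retinol to retinaldehyde, the reverse of the step of DHRS3, rose in all 3 settings. It read 9.57, 9.56 and 9.46 in control LNCaP with vehicle and 10.63, 10.54 and 10.48 after knockdown. The rise was 2.03-fold there (1.02 ± 0.06, adjusted p = 7.9e-10), 1.64-fold with DHT (0.72 ± 0.06, adjusted p = 4.7e-08) and 1.72-fold in LNCaP-abl (0.78 ± 0.06, adjusted p = 1.65e-08).

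DGAT1, an acyltransferase that makes triglycerides and can also esterify retinol, rose with knockdown too. It read 8.61, 8.71 and 8.77 in control LNCaP with vehicle and 9.29, 9.27 and 9.35 after knockdown. The differences were 0.60 ± 0.05, 0.82 ± 0.05 and 0.61 ± 0.05 in the 3 settings (adjusted p = 3.91e-08, 1.22e-09 and 3.3e-08), and arrays did not overlap. RDH12, another retinal reductase, fell with knockdown in LNCaP with vehicle alone among the 3 settings (-0.62 ± 0.10, adjusted p = 0.000143), and its knockdown difference was higher with DHT by 0.56 and in LNCaP-abl by 0.79. RDH12 values in LNCaP lay near the filter, from 5.69 to 6.62. ADH5 was called lower with knockdown in LNCaP with DHT (-0.16) and in LNCaP-abl (-0.14) by its brightest probe set, but the mean of its probe sets was higher, by 0.31 and 0.29.

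ALDH1A3, a retinaldehyde dehydrogenase that makes retinoic acid, was the pathway gene with the largest DHT response. It read 8.39, 8.43 and 8.21 in control LNCaP with vehicle and 11.07, 10.95 and 11.06 with DHT, a 6.4-fold rise (2.68 ± 0.15, adjusted p = 4.1e-10). With TRIM24 siRNA the rise was 5.63-fold (2.49 ± 0.15, adjusted p = 9.86e-10). In control LNCaP-abl it read 5.60, 5.89 and 5.65, or 16.1% of the LNCaP signal (-2.63 ± 0.15, adjusted p = 1.84e-10); these values lie at or under the filter, where signals are compressed, so the fall may be understated. ALDH1A3 and RARB thus had the same order of groups by treatment and cell line: both were higher with DHT and lower in LNCaP-abl. Knockdown lowered ALDH1A3 in LNCaP with DHT by -0.56 ± 0.15 (adjusted p = 0.00729).

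Of 9 listed uptake and binding proteins, 7 had a named probe set and 5 were tested, CRABP2 among them. In vehicle-treated LNCaP the knockdown called 0 of the 5 by limma (0 at an unadjusted p under 0.05), 2 under DHT and 2 in LNCaP-abl, where 38.5%, 40.2% and 45.6% of all genes were called. FABP5, a fatty acid-binding protein that can also deliver retinoic acid to another receptor, was lower after knockdown with DHT (-0.42 ± 0.09, adjusted p = 0.00155) and in LNCaP-abl (-0.33 ± 0.09, adjusted p = 0.00832). It was higher in control LNCaP-abl than in LNCaP (1.19 ± 0.09, adjusted p = 8.39e-09), where its values were under the filter. RBP7, a cellular retinol-binding protein, was at 33.5% of the LNCaP signal in control LNCaP-abl (-1.58 ± 0.08, adjusted p = 4.75e-11), where it read 6.06, 5.86 and 5.91, close to the filter.

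Of 21 listed genes known to be induced by retinoic acid, 16 had a named probe set and 11 were tested, RARB, DHRS3 and CRABP2 included. Knockdown raised 2 and lowered 1 in LNCaP with vehicle, raised 4 and lowered 1 with DHT, and raised 2 and lowered 1 in LNCaP-abl. These are 3, 5 and 3 of 11, beside 38.5%, 40.2% and 45.6% of all genes called. The lowered gene was DHRS3 in each. PLAAT4, a phospholipase induced by retinoids, read 8.87, 8.85 and 8.78 in control LNCaP with vehicle and 9.63, 9.64 and 9.67 after knockdown. Its rise was 0.82 ± 0.06 there (adjusted p = 1.44e-08), 0.20 ± 0.06 with DHT (adjusted p = 0.0115) and 0.72 ± 0.06 in LNCaP-abl (adjusted p = 6.42e-08). The rise was smaller with DHT than with vehicle by 0.62 (-0.62 ± 0.08, adjusted p = 0.000216), and under DHT its call was lost without the second control or the third knockdown array (adjusted p = 0.0614 and 0.0645) and with the RNA quality covariate (adjusted p = 0.366). MEIS1, a homeobox factor, rose by 0.50 without DHT and 0.49 under DHT (adjusted p = 0.0346 and 0.0365), calls that were lost without 5 and 4 of the 6 arrays in turn.

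**Figure D4:**
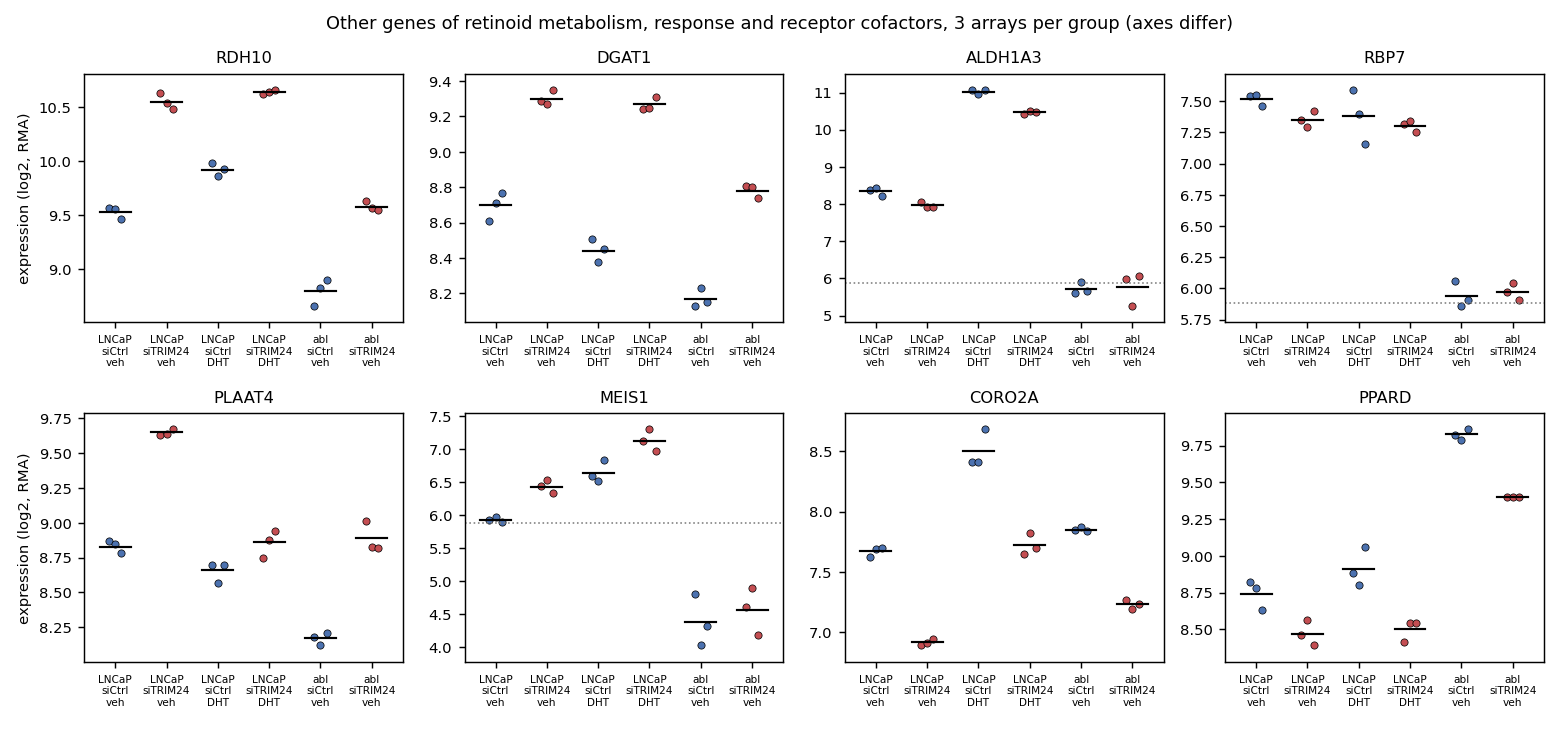
The 8 panels show other genes of retinoid metabolism, response and receptor complexes in the 6 groups, as log2 values with 1 point an array (blue control siRNA, red TRIM24 siRNA), black lines for group means and a dotted line at the filter of 5.88. RDH10 and DGAT1 were higher and CORO2A and PPARD lower in red than in blue in each pair of groups, while ALDH1A3 was highest with DHT and lowest in LNCaP-abl.

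All 6 corepressor genes with a named probe set, of 8 listed, were tested. Knockdown called 5 of them in LNCaP with vehicle (2 higher, 3 lower), 5 with DHT (2 higher, 3 lower) and 3 in LNCaP-abl (all lower), where 38.5%, 40.2% and 45.6% of all genes were called. CORO2A, a subunit of the NCOR complex, read 7.62, 7.69 and 7.70 in control LNCaP with vehicle and 6.89, 6.91 and 6.94 after knockdown. It fell by -0.75 ± 0.06, -0.78 ± 0.06 and -0.62 ± 0.06 in the 3 settings (adjusted p = 6.79e-08, 4.78e-08 and 5.68e-07). HDAC3, the deacetylase of the complex, fell by -0.35, -0.33 and -0.34, and TBL1X, its WD-repeat subunit, by -0.25, -0.31 and -0.36, each called. SIN3A, a separate corepressor scaffold, was higher by 0.21 and 0.20 in LNCaP and was -0.07 in LNCaP-abl, where it was not called.

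Of 11 listed coactivators, 10 were tested. Knockdown raised 1 and lowered 3 in LNCaP with vehicle, raised 1 and lowered 3 with DHT, and lowered 5 in LNCaP-abl. These 4, 4 and 5 of 10 stand beside 38.5%, 40.2% and 45.6% of all genes. NCOA2, a p160 coactivator, fell by -0.46 ± 0.04, -0.56 ± 0.04 and -0.34 ± 0.04 (adjusted p = 5.02e-07, 5.78e-08 and 1.3e-05). KAT2B, an acetyltransferase, fell by -0.32, -0.37 and -0.37 and NCOA6 by -0.22, -0.18 and -0.20, each called; with the mean of its probe sets NCOA6 in LNCaP-abl was 0.01. PRMT1, an arginine methyltransferase, rose by 0.19 and 0.26 in LNCaP and was not called in LNCaP-abl (0.10).

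Of 13 listed genes for other partners of RXR, 10 had a named probe set and 9 were tested, of which 3 were called in each knockdown comparison, against 38.5%, 40.2% and 45.6% of all genes. PPARD, a fatty acid receptor, fell by -0.27, -0.41 and -0.43 (adjusted p = 0.00348, 9.4e-05 and 6.15e-05). PPARA, its relative, rose by 0.35, 0.31 and 0.23 (adjusted p = 0.00117, 0.00315 and 0.0166), the last lost without 3 of the 6 arrays in turn. Between cell lines 5 of the 9 were called with either siRNA, against 63.8% of all genes with control and 69.8% with TRIM24 siRNA. THRB, a thyroid hormone receptor, was at 22.5% of the LNCaP level in control LNCaP-abl (-2.15 ± 0.03, adjusted p = 1.75e-17), and PPARD was 2.12-fold higher (1.08 ± 0.07, adjusted p = 3.74e-10). DHT lowered NR4A2, an orphan receptor that can pair with RXR, to 24.3% of the vehicle signal in control cells (-2.04 ± 0.15, adjusted p = 1.49e-08), with DHT values of 4.56, 4.83 and 4.67, under the filter.

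TRIM28, TRIM33 and TRIM66, the relatives of TRIM24 in the TIF1 family, were called in none of the 3 knockdown comparisons by limma, with differences from -0.11 to 0.31 and 2 of the 9 tests at an unadjusted p under 0.05.

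The DR5 motif shown above was found in the 300-base windows of 58 genes, on either side of the start, of which 33 had a named probe set and 20 were tested, RARB among them. Knockdown called 7 of the 20 in vehicle-treated LNCaP (35.0%), 9 under DHT (45.0%) and 8 in LNCaP-abl (40.0%), beside 38.5%, 40.2% and 45.6% of all genes. The median difference of the 20 genes was -0.02, -0.14 and -0.03. By direction these were 3 higher and 4 lower with vehicle, where 20.5% of all genes were higher and 18% lower. With DHT they were 1 higher and 8 lower, against 19.4% and 20.8%, and in LNCaP-abl 2 higher and 6 lower, against 16.7% and 28.8%. DHT called 10 of them with control siRNA (50.0%; 7 higher, 3 lower), against 45.7% of all genes, and 8 with TRIM24 siRNA (40.0%; 4 higher, 4 lower), against 43.5%. Between cell lines 14 were called with either siRNA (70.0%), against 63.8% with control and 69.8% with TRIM24 siRNA.

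For the 4 genes whose group means spanned at least 0.5, the genes with the most similar profile over the 18 arrays were found by Pearson correlation among 6906 genes; the 18 points share their 6 groups, so the values are a description. PLA1A (0.981), CCDC81 (0.977) and MPC2 (0.975) were most like RARB. PLA1A read 5.53, 5.69 and 5.57 in control LNCaP with vehicle, 7.55, 7.45 and 7.51 under DHT, and 4.12, 4.25 and 4.12 in control LNCaP-abl. CERS6 (0.990), FCHO2 (0.979) and SLC50A1 (0.978) were most like DHRS3. CERS6 read 11.98, 12.03 and 12.07 in control LNCaP with vehicle, 11.15, 11.22 and 11.18 after knockdown, and 12.82, 12.78 and 12.83 in control LNCaP-abl. These levels of different genes are not on a common scale, and only their patterns are alike. YBEY (0.994), DYNC1I2 (0.993) and VAT1 (0.992) were most like RXRA, and LSP1P4 (0.937), PRSS8 (0.936) and CTSA (0.931) most like RARG.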

How the data were processed

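Expression was measured on 18 one-colour Affymetrix arrays, 3 for each of 6 groups, which the labels define. The deposited values are log2 values per probe set, made by the authors with RMA, per the submitters' processing notes; no version or setting is stated there. RMA scales arrays to a common distribution, so a change shared by all genes would not be seen. Of 54675 probe sets, 62 were controls, 41097 had 1 gene symbol in the platform annotation, 1801 several and 11777 none; 41043 symbols were updated through the gene identifier. A gene took its probe set with the highest mean, and 13607 of 19775 genes reached 5.88, the median of the table, on at least 3 arrays and were tested. Group means were fitted over all 18 arrays with limma 3.58.1 in R 4.3.3 (12 residual degrees of freedom, two-sided moderated tests, Benjamini-Hochberg adjustment), and every probe set was also tested alone. The fit was tested on simulated data. The named genes were TRIM24, the 8 genes, up to 4 further called genes per list and comparison by smallest adjusted p, and the 3 genes most like each of the 8 whose group means spanned at least 0.5. The 8 genes and the lists were chosen with earlier results of these data known; the lists are those of the pathway by role and of cell type markers. Replicate numbers were checked for pairing: of 33 pairs of same-numbered arrays, 4 correlated over 0.1 (range -0.297 to 0.196), so they were not used as pairs. Alternatives were the filter, the probe set of a gene, centring, quantile normalization, a fit of only the groups compared, a variance trend, a replicate block, leaving out each array, and RNA quality as a covariate. Promoter sequences are from RefSeq, GRCh38.p14. The number of arrays limits the precision.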

Additional observations from a re-analysis of the deposited data

Results flagged for a closer look

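The results below are those named genes whose knockdown difference itself differed between 2 settings by the interaction term of the limma fit, at an adjusted p under 0.05. A positive value means that the knockdown difference was higher (for a fall, smaller) with DHT than with vehicle, or in LNCaP-abl than in LNCaP. No explanation was tested for any of them.

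Between DHT and vehicle in LNCaP, the knockdown difference changed by 0.24 for DHRS3 (adjusted p = 0.0369) and by -0.21 for RXRA (adjusted p = 0.0432), the 2 of 7 tested genes called against 11.1% of all genes. Of the listed pathway genes, it changed by 0.56 for RDH12, -0.30 for RDH10, -0.25 for ADH4, 0.22 for DGAT1 and -0.62 for PLAAT4. PLAAT4 had the smallest adjusted p of these 7 (0.000216). The DHRS3, RXRA, ADH4 and DGAT1 calls were lost without 10, 10, 9 and 10 of the 12 arrays in turn, those of RDH10 without 3, and that of RDH12 without the third knockdown DHT array (adjusted p = 0.0552).

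Between LNCaP-abl and LNCaP with vehicle, the knockdown difference changed by 0.32 for DHRS3 (adjusted p = 0.00273), 0.30 for RARG (adjusted p = 0.0123) and -0.21 for RXRA (adjusted p = 0.0208), 3 of 7 tested genes against 28.5% of all genes. In RARG a rise in LNCaP-abl stood against no call in LNCaP, and in DHRS3 a fall of -0.30 stood against one of -0.62. Of the listed genes, the difference changed by 0.34 for RETSAT, a retinol saturase, by 0.79 for RDH12, by -0.24 for RDH10, by -0.27 for SIN3A, by -0.28 for MED1, by -0.25 for THRB and by -0.30 for VDR. The RDH10 call was lost without 7 of the 12 arrays in turn (adjusted p up to 0.0977).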

How the results depend on the processing

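Of 30 called values of the 7 tested genes, 17 kept their call under every alternative run and 13 lost it under at least 1; 12 uncalled values gained one. Of 150 called values of the listed genes, 103 kept their call. The 3 knockdown calls of DHRS3 and both DHT calls of RARB were kept; from the mean of probe sets RARB and RXRB did not reach the filter. The number of the 7 genes called moved by more than 1.5 times as follows. For the knockdown in LNCaP with vehicle it went from 2 to 1 without a filter, with the mean of probe sets, with every probe set tested alone, with quantile normalization and with the RNA quality covariate. For the knockdown with DHT it went from 2 to 1 without a filter, with the most variable probe set, every probe set, centred arrays, quantile normalization, a variance trend and the covariate. For DHT with control siRNA it went from 3 to 1 with the mean of probe sets, every probe set, centred arrays and only the groups compared, and for DHT with TRIM24 siRNA from 4 to 1 with the mean. For the interaction with DHT it went from 2 to 0 without a filter and with every probe set, and to 1 with the mean, the most variable probe set, centred arrays, quantile normalization, only the groups compared and the covariate. Smaller moves, with single arrays left out included, gave up to 3 for the knockdown with DHT, 3 to 5 for the knockdown in LNCaP-abl (4), 2 to 4 for DHT with control siRNA, 3 for DHT with TRIM24 siRNA, 4 to 5 between cell lines with control siRNA (4), 5 to 7 with TRIM24 siRNA (6) and 2 to 4 for the interaction with cell line (3). Leaving out 1 array gave 1 for the knockdown with vehicle, 1 to 2 for the knockdown with DHT, 1 to 4 for DHT with control siRNA and 0 to 1 for the interaction with DHT.

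Over all genes, the interaction with DHT called 1507, against 993 without a filter and 539 with every probe set, the interaction with cell line 3880 against 2411 with every probe set, and the knockdown with DHT 5468 against 2669 with the covariate. Signs turned with the mean of probe sets for ADH5 (knockdown with DHT 0.31, in LNCaP-abl 0.29), NCOA6 (in LNCaP-abl 0.01) and RARA (LNCaP-abl against LNCaP with control siRNA -0.14). They turned with the most variable probe set for ADH5 (0.78 and 0.72) and RARA (knockdown in LNCaP-abl -0.08, DHT with control siRNA -0.32, LNCaP-abl -0.43 with control and -0.56 with TRIM24 siRNA), and with the covariate for CRABP2 (knockdown with DHT -0.08). The probe sets of ADH5, NCOA6 and RARA disagree; for the other changes the cause was not tested.

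With the replicate number as a block, the knockdown with DHT called 1 of the 7 genes (2 without the block), and all other counts of the 7 genes were unchanged; over all genes it called 5115 for the knockdown with vehicle and 1364 for the interaction with DHT. Signals under the filter, as for RARB in LNCaP-abl and CYP26A1 throughout, limit what can be seen of those genes.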
